A study of Mus musculus with 6 samples.

Results

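The 10 genes *Tfap2a*, *Tfap2b*, *Tfap2c*, *Tfap2e*, *Ptf1a*, *Meis2*, *Chat*, *Slc18a3*, *Th* and *Prox1* mark amacrine cells, the inhibitory interneurons of the inner retina, or encode AP-2 transcription factors. They were taken by name from a table of raw RNA-Seq counts for 55573 mouse genes in 6 libraries. The libraries came from adult C57BL/6J mice that received AAV2, an adeno-associated virus, into the vitreous, carrying either *GFP* (3 control libraries) or *Ezh2* (3 libraries). In both groups the optic nerve was crushed 2 weeks later, and cells labeled for CD90.2 (the Thy1 surface protein) were sorted from dissociated retinas 3 days after the crush to enrich retinal ganglion cells (RGCs). Ezh2 is the catalytic subunit of Polycomb repressive complex 2, which methylates histone H3 at lysine 27 and silences genes. The virus is not specific to RGCs, no uninjured or uninjected group is used here, and the labels do not say whether replicates came from separate or pooled animals.

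Amacrine cells release GABA or glycine onto bipolar cells, RGCs and one another, and some lie displaced in the ganglion cell layer. Ptf1a, a basic helix-loop-helix factor, commits retinal progenitors to the amacrine and horizontal fates during development, and the AP-2 factors Tfap2a and Tfap2b act downstream of it in postmitotic cells. AP-2 proteins bind DNA as dimers at GC-rich sites, and Tfap2c is best known from trophoblast and germ cells. Starburst amacrine cells use acetylcholine as well as GABA and express *Chat* and *Slc18a3*, whereas dopaminergic amacrine cells express *Th*. Prox1 is a homeodomain factor of AII amacrine, horizontal and some bipolar cells and is also found in Müller glia.

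The sorted cells were not RGCs alone. Müller glia markers (6 genes) summed to 18000–18600 CPM (a gene's count scaled to a library total of 1e+06 counts) in the 3 GFP libraries and to 14000, 14400 and 11300 CPM in Ezh2 replicates 1, 2 and 3. The 10 RGC markers summed to 129–134 CPM in GFP libraries and 149–166 CPM in Ezh2 libraries. *Thy1*, the gene of the sorted surface protein, supplied 87.2–92.6 CPM of the GFP sums and 98.9–114 CPM of the Ezh2 sums. The sums therefore mostly reflect that gene and are not a measure of RGC content. The RGC-defining gene *Pou4f2* had 0–3 counts in every library, and its relatives *Pou4f1* and *Pou4f3* had 0–19 and 2–13. Other RGC markers were detected, with 501–671 counts for *Rbpms*, 288–540 for *Nefl* and 125–294 for *Slc17a6*. The horizontal cell gene *Lhx1* had 0–2 counts. Total counts ran from 30569933 to 35971192, so 3 counts, taken as the detection floor, equaled 0.0834–0.0981 CPM. *Ezh2* had 880, 1094 and 1014 counts in GFP libraries and 2513, 2287 and 3770 in Ezh2 libraries, an increase of 1.17 ± 0.08 (SE) on the log2 scale in 5 libraries (adjusted *P* = 2.97e-11). Ezh2 replicate 3 stood apart: its log expression across genes correlated with the other Ezh2 libraries at 0.9717 and 0.9728, against 0.9864 between those libraries and 0.9825–0.9851 within the GFP group. The study left 1 Ezh2 library out, so the main comparison set GFP replicates 1–3 against Ezh2 replicates 1 and 2 (5 libraries), and the fit to all 6 libraries is given beside it. A gene was called when its Benjamini-Hochberg adjusted *P* in edgeR's quasi-likelihood test was below 0.05 and its fold change exceeded 1.5. Bulk counts cannot tell fewer cells of a type from less RNA per cell.

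Of the 10 genes, the 5 with enough counts to be tested (*Tfap2a*, *Tfap2b*, *Tfap2c*, *Meis2* and *Prox1*) split into 1 that fell, 1 that rose and 3 that were not called. *Tfap2b* fell and *Tfap2c* rose, each with a called change in the 5 libraries and in all 6. Among all 20241 genes tested in the 5 libraries, 1.28% were called lower and 2.52% higher. In all 6 libraries these shares were 0.902% and 1.62% of 19732 genes. The other 5 genes (*Tfap2e*, *Ptf1a*, *Chat*, *Slc18a3* and *Th*) stayed below the count filter of 0.316 CPM in each of the 5 libraries.

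**Figure D1:**
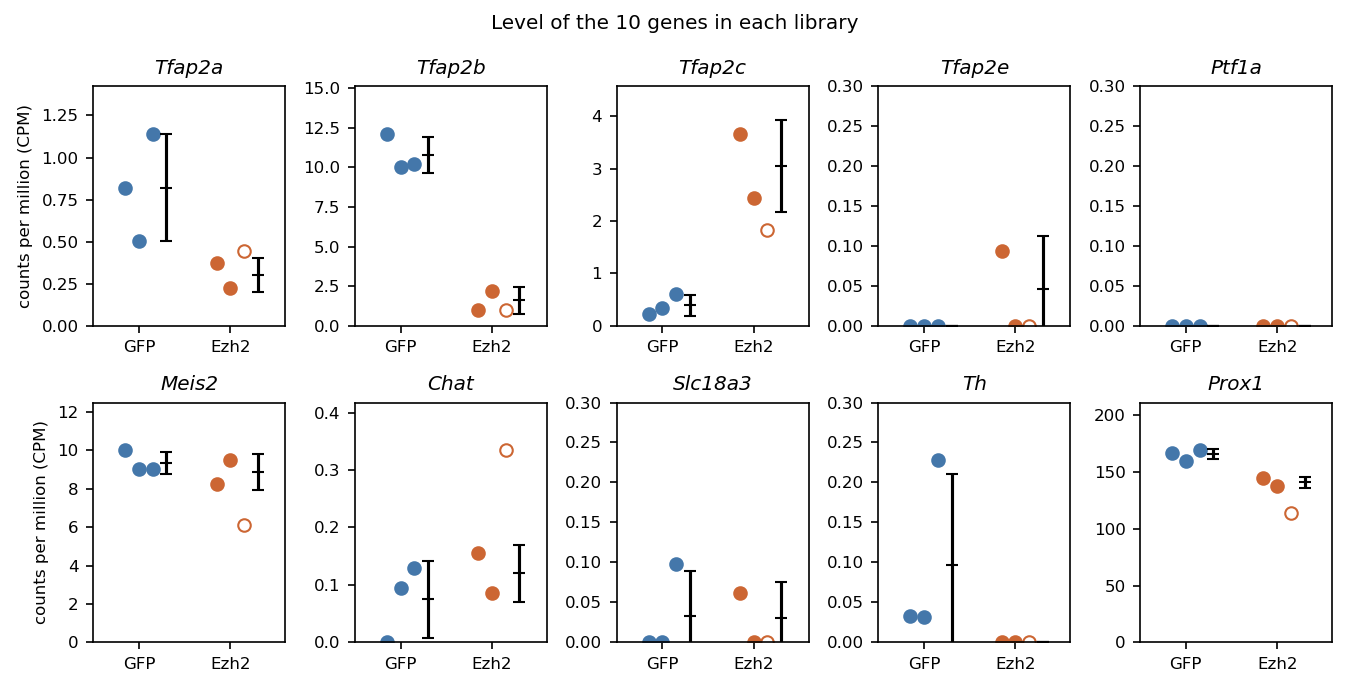
Level of each of the 10 genes in CPM (y axis, a separate scale per gene, starting at 0) in the GFP and Ezh2 libraries. Each point is a library, the open point is Ezh2 replicate 3, and the bars give the mean ± SD of GFP replicates 1–3 and of Ezh2 replicates 1 and 2. *Tfap2b* sat at 10–12.1 CPM in GFP libraries and 1.02–2.2 CPM in Ezh2 libraries, and *Tfap2c* at 0.229–0.618 and 1.83–3.66 CPM.

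The 300-base promoters of *Tfap2b*, of *Prox1* and of the amacrine gap-junction gene *Gjd2* are shown. Of these genes *Tfap2b* and *Gjd2* fell and *Prox1* was not called, and no gene that rose is printed. Polycomb repressive complex 2 is known to gather at unmethylated stretches rich in CpG dinucleotides, so CpGs are in capitals. Each runs 5′ to 3′ on the gene's strand from 250 bases before to 50 after a RefSeq start (GRCm38.p6).
*Tfap2b*, chr1:19211804-19212103, plus strand: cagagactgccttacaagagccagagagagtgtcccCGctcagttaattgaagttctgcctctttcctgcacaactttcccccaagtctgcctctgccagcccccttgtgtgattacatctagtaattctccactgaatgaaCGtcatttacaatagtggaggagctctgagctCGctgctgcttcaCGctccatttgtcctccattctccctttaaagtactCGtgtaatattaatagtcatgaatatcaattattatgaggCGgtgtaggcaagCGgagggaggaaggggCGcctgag
*Prox1*, chr1:190170778-190171077, minus strand: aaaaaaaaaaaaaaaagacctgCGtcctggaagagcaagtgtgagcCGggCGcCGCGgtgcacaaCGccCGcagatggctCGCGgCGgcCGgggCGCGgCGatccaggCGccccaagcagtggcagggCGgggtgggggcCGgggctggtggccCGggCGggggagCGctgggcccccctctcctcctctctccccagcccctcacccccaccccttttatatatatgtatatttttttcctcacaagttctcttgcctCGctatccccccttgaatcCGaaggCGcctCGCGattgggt
*Gjd2*, chr2:114013570-114013869, minus strand: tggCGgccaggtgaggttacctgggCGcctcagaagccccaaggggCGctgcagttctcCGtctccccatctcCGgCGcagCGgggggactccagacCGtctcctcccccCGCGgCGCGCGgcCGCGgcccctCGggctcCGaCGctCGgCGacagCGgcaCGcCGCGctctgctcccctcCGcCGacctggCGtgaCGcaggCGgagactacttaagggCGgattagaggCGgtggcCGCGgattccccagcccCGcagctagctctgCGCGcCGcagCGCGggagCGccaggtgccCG
The *Tfap2b* window held 8 CpGs and was 48.3% GC, close to the medians of 7 CpGs and 52.7% GC over 32851 RefSeq promoter windows. That window lies inside the annotated gene, which begins at chr1:19208914, and the sequence at that upstream start was not examined. RefSeq lists 2 starts for *Prox1*: the window printed held 25 CpGs (64.3% GC), and the other (chr1:190169466-190169765) held 14 CpGs (57.3% GC). The *Gjd2* window held 41 CpGs (75% GC), more than 96.5% of windows. Among the other called amacrine genes described below, the windows of *Ebf3* and *Prdm13*, which rose, held 46 and 8 CpGs. Those of *Neurod2* and *Drd2*, which fell, held 16 and 23. No window was found for *Calb1* and *Ppp1r17*, which also fell. Whether CpG content goes with the direction of change was not tested. The palindromic AP-2 motif GCCNNNGGC, the same on both strands, was in none of the 3 printed windows, nor in the other *Prox1* window, and in 16.6% of all windows. RefSeq promoter windows were found for 9 of the 10 genes, *Tfap2c* being the one without an entry, and the motif occurred in those of *Ptf1a* (1 match) and *Slc18a3* (3 matches). A match describes these letters and not a binding site.

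*Tfap2b* (ENSMUSG00000025927, GRCm38 chr1:19208914-19238576, plus strand) encodes the AP-2β factor of postmitotic amacrine and horizontal cells. It had 370, 318 and 315 counts in GFP replicates 1, 2 and 3 and 33, 77 and 37 counts in Ezh2 replicates 1, 2 and 3. Every Ezh2 library lay below every GFP library, with Ezh2 replicate 2 highest among the Ezh2 libraries. The mean was 10.8 ± 1.13 CPM (SD, *n* = 3) with GFP and 1.61 ± 0.83 CPM (SD, *n* = 2) with Ezh2. The log2 fold change was -2.72 ± 0.24 (SE), 95% confidence interval -3.21 to -2.23, a 6.57-fold decrease (edgeR adjusted *P* = 3.74e-08). All 6 libraries together gave -2.89 ± 0.30 (SE; adjusted *P* = 0.00169), so Ezh2 replicate 3 did not set the result. With Ezh2 replicate 2 left out of the 5, the change was -3.39, and with Ezh2 replicate 1 left out it was -2.27.

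*Tfap2c* (ENSMUSG00000028640, chr2:172549593-172558622, plus strand) encodes AP-2γ and changed in the opposite direction from a low level. It had 7, 11 and 19 counts in GFP replicates 1, 2 and 3 and 118, 85 and 66 counts in Ezh2 replicates 1, 2 and 3. The lowest Ezh2 library was above the highest GFP library. Mean levels were 0.398 ± 0.2 CPM (SD, *n* = 3) with GFP and 3.05 ± 0.875 CPM (SD, *n* = 2) with Ezh2. The log2 fold change of 2.93 ± 0.38 (SE), 95% confidence interval 2.16 to 3.70, was a 7.62-fold increase (edgeR adjusted *P* = 9.27e-07). All 6 libraries together gave 2.75 ± 0.41 (SE; adjusted *P* = 0.00838). *Tfap2c* passed the count filter in 2 GFP and both Ezh2 libraries of the 5, so it did not enter that test through the Ezh2 libraries alone. With all 6 libraries the filter asks for 3 libraries, and GFP replicate 1 was under it at 0.229 CPM. The entry of *Tfap2c* in the 6-library fit therefore needed the Ezh2 libraries, where it was high. The call from all 6 libraries was lost without GFP replicate 1 (log2 fold change 2.48, adjusted *P* = 0.0647) and without GFP replicate 2 (2.66, adjusted *P* = 0.0611).

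*Tfap2a* (ENSMUSG00000021359, chr13:40715302-40738376, minus strand), which encodes AP-2α and is co-expressed with *Tfap2b* in many amacrine cells, was near the count filter. It had 25, 16 and 35 counts in GFP replicates 1, 2 and 3 and 12, 8 and 16 counts in Ezh2 replicates 1, 2 and 3. Of the 5 libraries, 3 GFP libraries and 1 Ezh2 library passed the filter, so *Tfap2a* entered the test through the GFP libraries. The highest Ezh2 count equaled the lowest GFP count, although in CPM the groups did not overlap (0.506–1.14 with GFP and 0.228–0.445 with Ezh2). The log2 fold change was -1.43 ± 0.57 (SE), 95% confidence interval -2.60 to -0.27, and did not pass the test (edgeR adjusted *P* = 0.0807 in 5 libraries and 0.166 in 6). Without GFP replicate 2 it was called (-1.69, adjusted *P* = 0.048), so 1 library decided the call. The gene shares 73, 265 and 380 exonic bases with 3 antisense genes of 0–8 counts each, and whether counting used the strand is not given in the sources used here.

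*Tfap2e* (ENSMUSG00000042477, chr4:126716006-126736240, minus strand), the AP-2ε gene, had 3 counts in Ezh2 replicate 1 and 0 in the other 5 libraries. *Tfap2d*, the fifth AP-2 gene, had 0–2 counts. Both were at or under the floor in every library, and no difference was detectable at this depth. No 50-base stretch was shared between the annotated transcripts of the 5 AP-2 genes.

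Scaled by exon length, the *Tfap2* transcripts changed in make-up as well as in amount. *Tfap2b* supplied 89.3%, 88.9% and 80.2% of the summed per-kilobase level of *Tfap2a*, *Tfap2b*, *Tfap2c* and *Tfap2e* in GFP replicates 1, 2 and 3. In Ezh2 replicates 1, 2 and 3 its share was 12.6%, 32.9% and 21.6%. *Tfap2c* supplied 2.91–8.33% in GFP libraries and 77.9%, 62.6% and 66.3% in Ezh2 replicates 1, 2 and 3. The leading AP-2 transcript was thus *Tfap2b* in 3 of 3 GFP libraries and *Tfap2c* in 3 of 3 Ezh2 libraries. The *Tfap2a* share overlapped between the groups, at 5.78–11.5% with GFP and 4.42–12.1% with Ezh2. The summed level itself was 1.78–2.14 CPM per kilobase with GFP and 1.28, 1.05 and 0.752 in Ezh2 replicates 1, 2 and 3. These shares restate the called changes on another scale and carry no test of their own.

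**Figure D2:**
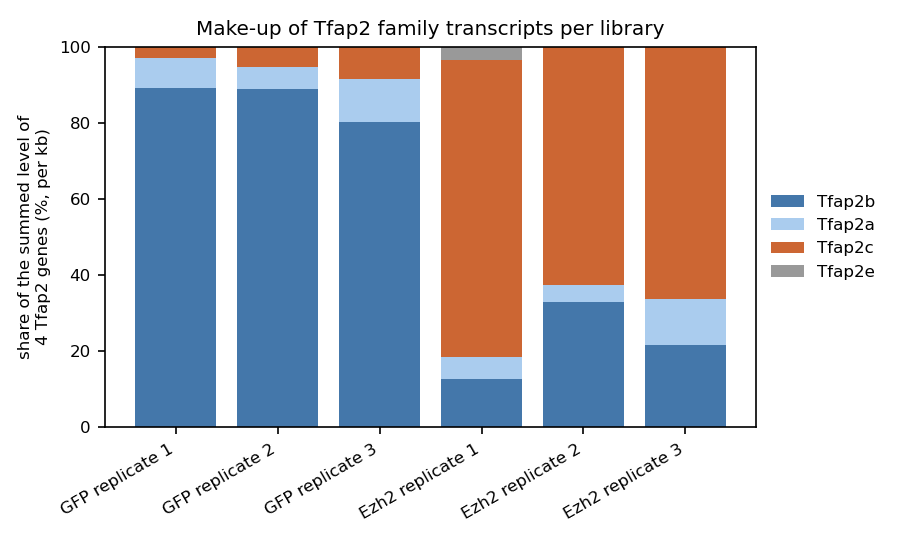
Share of each *Tfap2* gene in the summed level of *Tfap2a*, *Tfap2b*, *Tfap2c* and *Tfap2e* (y axis, percent, from CPM divided by exon length in kilobases) in each of the 6 libraries (x axis, 1 stacked bar per library). *Tfap2b* made up 80.2–89.3% of each GFP bar, and *Tfap2c* made up 62.6–77.9% of each Ezh2 bar.

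*Ptf1a* (ENSMUSG00000026735, chr2:19445663-19447501, plus strand) had 0 counts in every library, which allows at most 0.0834–0.0981 CPM by the 3-count floor. *Foxn4*, the developmental factor upstream of *Ptf1a*, had 0–4 counts and was not tested. *Rbpjl*, which can replace Rbpj in the Ptf1a complex of mature pancreas, had 4 counts in GFP replicate 2 and 0 elsewhere.

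*Meis2* (ENSMUSG00000027210, chr2:115863064-116065839, minus strand), a homeodomain gene of GABAergic amacrine cells, was not called. It had 306, 286 and 278 counts in GFP replicates 1, 2 and 3 and 265, 334 and 221 counts in Ezh2 replicates 1, 2 and 3, so the groups overlapped. The log2 fold change was -0.06 ± 0.14 (SE), 95% confidence interval -0.35 to 0.23 (edgeR adjusted *P* = 0.819). All 6 libraries together gave -0.20 ± 0.17 (SE; adjusted *P* = 0.494). Both ends of the 5-library interval lie within the 1.5-fold limit. *Tfap2b* and *Meis2* were at similar CPM in GFP libraries (10–12.1 and 9.04–10 CPM), whereas in Ezh2 libraries *Tfap2b* was at 1.02–2.2 and *Meis2* at 6.14–9.53 CPM.

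*Prox1* (ENSMUSG00000010175, chr1:190118035-190170714, minus strand) was the most abundant of the 10 genes, at a mean of 19.7 CPM per kilobase with GFP, against 1.7 for *Tfap2b*. It had 5112, 5079 and 5190 counts in GFP replicates 1, 2 and 3 and 4659, 4820 and 4107 counts in Ezh2 replicates 1, 2 and 3. GFP libraries held 160–169 CPM and Ezh2 replicates 1, 2 and 3 held 145, 138 and 114 CPM, with no overlap. The log2 fold change of -0.22 ± 0.05 (SE) passed on adjusted *P* (0.00245, edgeR) but was under the fold limit, at a 1.16-fold decrease, so *Prox1* was not called. All 6 libraries together gave -0.29 ± 0.08 (SE; adjusted *P* = 0.0659). The 6 Müller glia markers had a median log2 fold change of -0.23 in the 5 libraries and -0.31 in all 6, and no marker of that list was called. In the 5 libraries *Glul*, *Rlbp1*, *Dkk3*, *Aqp4* and *Slc1a3* also passed on adjusted *P* but not on fold. Their values ran from -0.49 for *Glul* to -0.20 for *Slc1a3*, whereas *Sox9* was at 0.11 (edgeR adjusted *P* = 0.187). The part of Müller glia in the *Prox1* value was not tested.

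**Figure D3:**
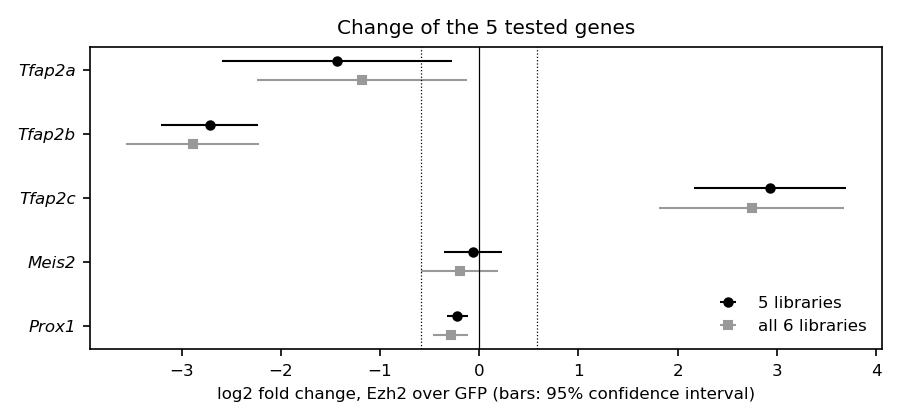
Log2 fold change of Ezh2 over GFP (x axis) for the 5 tested genes, with 95% confidence intervals, in 5 libraries (black circles) and all 6 (gray squares). Dotted lines mark a 1.5-fold change. *Tfap2b* lay at -2.72 and *Tfap2c* at 2.93, whereas the intervals of *Meis2* and *Prox1* in the 5 libraries stayed inside the dotted lines.

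The transmitter markers of cholinergic and dopaminergic amacrine cells were close to the detection floor. *Chat* (ENSMUSG00000021919, chr14:32408203-32465989, minus strand), which makes acetylcholine, had 0, 3 and 4 counts in GFP replicates 1, 2 and 3 and 5, 3 and 12 in Ezh2 replicates 1, 2 and 3. The vesicular acetylcholine transporter gene *Slc18a3* (ENSMUSG00000100241, chr14:32462438-32464850), which lies inside the *Chat* locus on the same strand with 0 shared exonic bases, had 3 counts in GFP replicate 3, 2 in Ezh2 replicate 1 and 0 elsewhere. *Th* (ENSMUSG00000000214, chr7:142892752-142931128, minus strand), which encodes tyrosine hydroxylase, the rate-limiting enzyme of dopamine synthesis, had 1, 1 and 7 counts in GFP libraries and 0 in the 3 Ezh2 libraries. A single GFP library exceeded the 3-count floor for *Th*, so no fold is given, and no difference was detectable at this depth. Choline and dopamine transporter genes were as scarce, with 0–4 counts for *Slc5a7* and 0 for *Slc6a3*.

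Beyond the 10 genes, 5 lists of amacrine-related genes held 44 genes, of which 37 were tested. In the 5 libraries 5 of the 37 fell (*Neurod2*, *Drd2*, *Gjd2*, *Calb1* and *Ppp1r17*) and 2 rose (*Ebf3* and *Prdm13*), against 1.28% and 2.52% of all genes. *Ppp1r17* was under the count filter of 0.316 CPM in Ezh2 replicates 1 and 2 (0.279 and 0.228 CPM). *Neurod2* and *Calb1* were under it in Ezh2 replicate 2 (0.314 CPM each). These genes entered the 5-library test through the GFP libraries, where they were high, so the count of genes that fell partly reflects the filter. The median log2 fold change over the 37 was -0.15, against -0.01 over all genes. By adjusted *P* alone, 15 of the 37 were lower and 2 higher, where 7.68% of all genes were lower and 10.1% higher. In all 6 libraries 4 fell and 2 rose, *Ppp1r17* being lost (adjusted *P* = 0.0547), against 0.902% and 1.62% of all genes. With GFP replicate 1, 2 or 3 then left out of the 6, the calls were 1, 3 and 1 lower and 0, 0 and 1 higher, and 110, 187 and 126 genes were called in all.

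Among 21 tested amacrine transcription factor genes, 2 rose and 1 fell, and the list's median log2 fold change was -0.04. *Prdm13*, which encodes a zinc-finger factor required for subsets of GABAergic and glycinergic amacrine cells, had 20, 30 and 25 counts in GFP libraries and 107, 82 and 78 in Ezh2 replicates 1, 2 and 3. Every Ezh2 library exceeded every GFP library, and the log2 fold change was 1.81 ± 0.32 (SE, edgeR adjusted *P* = 9.73e-05 in 5 libraries and 0.0122 in 6). *Ebf3*, a gene of the early B cell factor family found in amacrine cells and RGCs, had 111, 116 and 128 counts with GFP and 335, 310 and 256 with Ezh2. Its groups did not overlap either, and its log2 fold change was 1.34 ± 0.17 (SE, edgeR adjusted *P* = 6.72e-07 and 0.00669). *Neurod2*, a basic helix-loop-helix gene of amacrine subsets including AII cells, went the other way, with 88, 75 and 79 counts with GFP and 28, 11 and 18 with Ezh2. Its log2 fold change was -2.14 ± 0.37 (SE, edgeR adjusted *P* = 8.33e-05 and 0.0125). *Pax6* and *Sox2*, which amacrine cells and Müller glia both express, had log2 fold changes of -0.15 and -0.04 and were not called.

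The subtype list, made of markers of AII and other amacrine cells, had the lowest median of the 5, -1.13 over 6 tested genes, and 3 of them fell. *Gjd2*, which encodes connexin 36 and forms the gap junctions of AII cells with each other and with ON cone bipolar cells, had 862, 729 and 643 counts with GFP and 112, 183 and 114 with Ezh2. All Ezh2 libraries were below all GFP libraries, and the log2 fold change was -2.45 ± 0.17 (SE), a 5.45-fold decrease (edgeR adjusted *P* = 1.52e-07 in 5 libraries and 0.000441 in 6). *Calb1*, which encodes the calcium-binding protein calbindin of amacrine and horizontal cells, had 97, 79 and 95 counts with GFP and 18, 11 and 3 with Ezh2. Its log2 fold change was -2.73 ± 0.36 (SE, edgeR adjusted *P* = 1.42e-06 and 0.00922). *Ppp1r17*, an inhibitor of protein phosphatases, had 27–31 counts with GFP and 8–14 with Ezh2, a log2 fold change of -1.83 ± 0.55 (SE, edgeR adjusted *P* = 0.017). *Calb2*, which encodes calretinin, had a log2 fold change of 0.005 ± 0.215 (SE) and overlapped between groups, whereas *Dab1*, a reelin-signaling adaptor of AII cells (-0.44), and *Slc17a8*, the vesicular glutamate transporter 3 gene (-0.43), passed on adjusted *P* but not on fold.

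**Figure D4:**
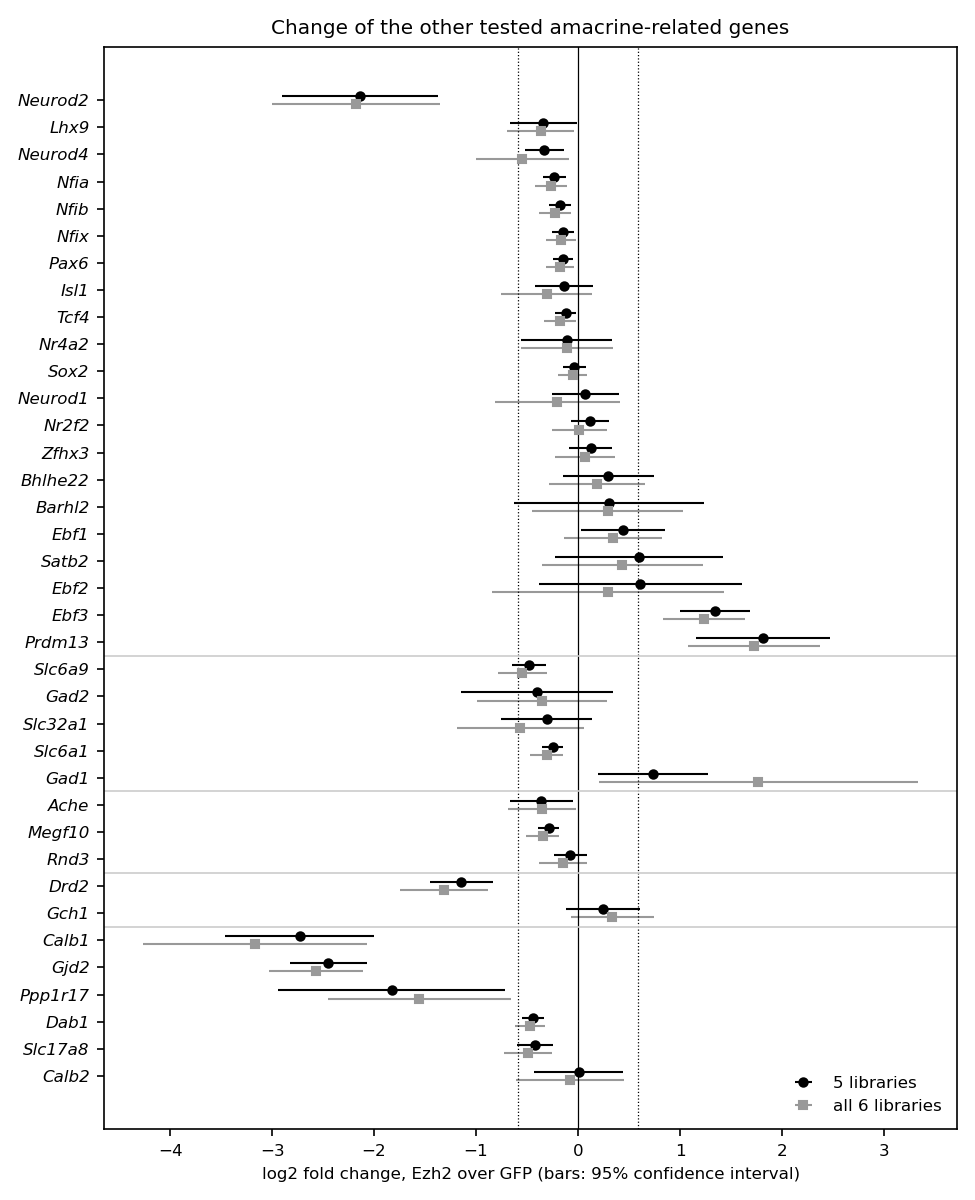
Log2 fold change of Ezh2 over GFP (x axis) with 95% confidence intervals for the 37 other tested amacrine-related genes, in 5 libraries (black circles) and all 6 (gray squares). From top to bottom, gray lines separate transcription factor, inhibitory transmitter, cholinergic, dopaminergic and subtype genes, and dotted lines mark a 1.5-fold change. *Neurod2*, *Drd2*, *Calb1*, *Gjd2* and *Ppp1r17* lay to the left, and *Ebf3* and *Prdm13* to the right.

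None of the 5 inhibitory transmitter genes was called. *Slc6a9*, a glycine transporter gene of glycinergic amacrine cells, had a log2 fold change of -0.48 ± 0.08 (SE), which passed on adjusted *P* (5.83e-05, edgeR) but not on fold. *Gad1*, a GABA-synthesizing enzyme gene, had 59, 56 and 59 counts with GFP and 118, 89 and 436 with Ezh2, so Ezh2 replicate 3 was far above the others. Its log2 fold change was 0.73 ± 0.27 (SE) in 5 libraries (edgeR adjusted *P* = 0.0537) and 1.77 ± 0.64 (SE) in 6 (adjusted *P* = 0.168). *Gad2* and the vesicular transporter gene *Slc32a1* were at -0.40 ± 0.36 and -0.31 ± 0.22 (SE). None of the 3 tested cholinergic genes was called, the values running from -0.36 for *Ache*, which encodes acetylcholinesterase, to -0.07 for *Rnd3*. In the dopaminergic list, the dopamine receptor gene *Drd2* fell from 322–376 counts with GFP to 113–175 with Ezh2. Its log2 fold change was -1.14 ± 0.15 (SE, edgeR adjusted *P* = 1.47e-06 and 0.0074). *Gch1*, which encodes an enzyme of cofactor synthesis for tyrosine hydroxylase, was at 0.24 ± 0.18 (SE). *Ddc* and *Slc18a2* of the same list had 0–7 and 0–3 counts and were not tested. Which cells supplied the *Drd2* counts is not known from these libraries.

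Relative to the summed CPM of *Gad1*, *Gad2*, *Slc32a1* and *Slc6a9* in the same library, *Tfap2b* stood at 0.176–0.182 with GFP and at 0.0214, 0.0519 and 0.0224 in Ezh2 replicates 1, 2 and 3. The same ratio for *Meis2* was 0.15–0.159 with GFP and 0.172, 0.225 and 0.134 with Ezh2. For *Prox1* it was 2.51–2.92 with GFP and 2.49–3.25 with Ezh2. *Tfap2b* therefore lay apart between groups on this scale too, and *Prox1* overlapped. *Slc6a9* supplied most of the reference sum in every library, and *Gad1* weighed on it in Ezh2 replicate 3.

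None of the 14 tested genes of AP-2 corepressors and coactivators, of the Meis and Pbx families and of Ptf1a partners was called. Their log2 fold changes ran from -0.60 ± 0.27 (SE) for *Pbx4* to 0.41 ± 0.21 (SE) for *Pbx3*, both homeodomain partners of Meis proteins, around a median of -0.08. *Meis1*, a close relative of *Meis2*, stood at -0.26 ± 0.06 (SE; edgeR adjusted *P* = 0.00189), below the fold limit. *Cited2*, an AP-2 coactivator gene, was at 0.36 ± 0.12 (SE, adjusted *P* = 0.0304), also below it.

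Markers of other cell types moved with the groups as well. All 6 cone markers were called higher in the 5 libraries, with sums of 25.8–26.5 CPM with GFP and 60, 52 and 34.9 CPM in Ezh2 replicates 1, 2 and 3, and 1 of the 6 was called in all 6 libraries. T cell markers summed to 402–428 CPM with GFP and 539, 515 and 849 CPM with Ezh2, *Cd8a* being the 1 of 8 called. Bipolar cell markers, none of 7 called, summed to 629–638 and 522–635 CPM. B cell markers (464–515 and 289–507 CPM) and lymphatic endothelium markers (490–515 and 344–484 CPM) also held no called gene. Horizontal cells also express *Tfap2b*, *Calb1* and *Prox1*. Of 6 horizontal cell markers, 3 were tested and none called, and the defining genes *Lhx1* and *Onecut1* had 0–6 counts in every library. Lens and surface epithelium, a tissue in which *Tfap2a* is known, had summed markers of 0.584–4.51 CPM, with *Cryaa* the 1 of 2 tested genes called lower (log2 fold change -1.82, edgeR adjusted *P* = 0.0107, and 0.0583 in all 6 libraries). The part of these cell types in the amacrine values was not tested.

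**Figure D5:**
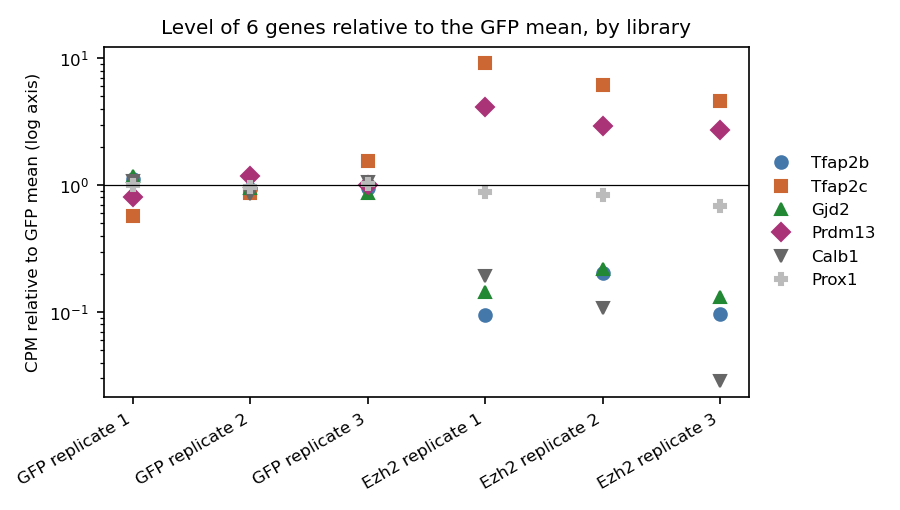
CPM of 6 genes in each library divided by the mean of the 3 GFP libraries (y axis, log scale, 1 marks the GFP mean), by library (x axis). *Tfap2c* and *Prdm13* lay above and *Tfap2b*, *Gjd2* and *Calb1* below the GFP mean in all 3 Ezh2 libraries, whereas *Prox1*, not called, stayed nearest to it.

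The genes whose log2 CPM followed *Tfap2b* most closely over the 6 libraries were *Tgtp1* (Pearson *r* = 0.9979), *Gm49469* (0.9965), *Gjd2* (0.9959), *Zfr* (0.994) and *Runx1t1* (0.9934). They were taken from 13771 genes with a mean of at least 100 counts, of which 272 had *r* above 0.95. These points share 6 libraries in 2 groups, so any gene with a group difference scores high. The changes behind these values differed in size: *Gjd2* was 5.45-fold lower, *Tgtp1*, an interferon-induced GTPase gene, had a log2 fold change of -0.69 ± 0.08 (SE), and *Zfr*, which encodes a zinc-finger RNA-binding protein, had one of -0.15 ± 0.05 (SE). *Gjd2* was the only gene among these 5 that also belonged to the amacrine lists.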

How the data were processed

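RNA-Seq of 6 samples (GFP and Ezh2, 3 replicates each) was analyzed from gene counts deposited by the authors, which are raw counts per Ensembl gene with no normalization. The submitters' processing notes name STAR 2.7.0d and GRCm38. The counting tool, annotation release and strand setting are not given in the sources used here, and libraries were made with a stranded total RNA kit. Of 55573 gene IDs, 55480 matched GENCODE M21. Genes were filtered with filterByExpr (minimum count 10), scaled by TMM and tested with edgeR 4.0.16 (glmQLFit with robust = TRUE, glmQLFTest) in R 4.3.3, with Benjamini-Hochberg adjustment over all tested genes. CPM used library totals of 30569933–35971192, so counting noise limits genes of few counts. The study excluded 1 Ezh2 library without a label naming it. Ezh2 replicate 3 was left out of the main comparison because the study's displays keep the other Ezh2 replicates. Alternatives used DESeq2 1.42.0, limma 3.58.1, other scalings, no filter, no robust fit (chosen after seeing the data), a replicate block and left-out libraries. On simulated counts for the 5-library comparison over 19820 genes, 199 of 200 genes changed 3-fold were recovered, with 4 false calls. The changed genes were drawn only from genes of higher counts, and every gene was given the same spread between libraries. The recovery therefore does not cover genes of few counts such as *Tfap2a*, and real genes differ in spread. The members and lists were chosen with earlier results of these data known. Named genes are the 10 members, *Ezh2*, called list genes, each list's largest rise and fall, and the 5 genes most like *Tfap2b*. *Ccl21a* matched more than 1 ID and was left out of its list. Other list genes were named for context after their values were seen. Because labels do not say that replicates came from separate animals, *P* values measure the spread between these samples, which may be technical. All library pairs differed by more than sampling noise. Drawings used matplotlib 3.10.9.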

Additional observations from a re-analysis of the deposited data

How the results depend on the processing

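*Tfap2b* and *Gjd2* kept their direction and call in 19 of 19 alternatives, at log2 fold changes of -3.39 to -2.27 and -2.81 to -2.18. *Prox1* stayed uncalled in 19 of 19 (-0.34 to -0.20). The count of called genes was 770 in the 5 libraries, 498 in all 6, 722 with the replicate block and 396 with the replicate block in all 6, and 3605 by adjusted *P* alone, where 2 members (*Tfap2b* and *Prox1*) and 15 other amacrine genes were lower. In the labels, same-numbered libraries share only a number. Their deviations from the group means correlated at -0.013, -0.01 and -0.006, which cannot show whether they were paired. The block changed no call of a member.

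With single libraries left out, the count of called genes ran from 110 to 794, of members lower from 1 to 2, of members higher from 0 to 1, of other amacrine genes lower from 1 to 5 and higher from 0 to 3. From all 6 libraries, it was 110, 187 and 126 without GFP replicate 1, 2 or 3 and 416 and 423 without Ezh2 replicate 1 or 2. The cause was not tested. In the fits to all 6 libraries, the log2 fold change of *Ezh2* was 1.34, 1.47 and 1.43 without GFP replicate 1, 2 or 3, with edgeR adjusted *P* of 0.0793, 0.0616 and 0.0877, and that of *Tfap2c* was 2.48 and 2.66 without GFP replicate 1 or 2, so both lost their calls there. Over all left-out libraries *Ezh2* ranged from 1.05 to 1.56 and *Tfap2c* from 2.46 to 3.39. *Tfap2a* ranged from -1.80 to -0.87 and was called at -1.69 without GFP replicate 2 of the 5, against -1.44 and -1.13 without GFP replicate 1 or 3. *Meis2* ranged from -0.34 to 0.051, being 0.051 without Ezh2 replicate 1 of the 5 (edgeR adjusted *P* = 0.909) and -0.19 without Ezh2 replicate 2. *Neurod2* and *Prdm13* lost their calls in 3 of 19 alternatives and *Ebf3*, *Drd2* and *Calb1* in 2, each time in all 6 libraries without 1 GFP library, and *Ppp1r17* lost it in 9 of 18. DESeq2 gave no adjusted *P* for *Tfap2a* and *Ppp1r17*, so its count of 4 other amacrine genes lower leaves *Ppp1r17* out. With 1 Ezh2 library left, that library is assumed to vary like the GFP libraries. The counts per library limit *Tfap2e*, *Ptf1a*, *Chat*, *Slc18a3* and *Th*, for which no difference was detectable.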
